A study of Arabidopsis thaliana with 9 samples.

Results

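The genes ATA27 (AT1G75940), SHT (AT2G19070), AT1G68875, AT5G13380 and AT1G47980 were chosen by their measured signal, which in anthers of the Arabidopsis dyt1 mutant was far below that in anthers of the ams mutant. They are 5 of the 13286 genes that could be paired with a probe set, and each was read by 1 probe set that the platform annotation assigns to that gene alone. The values that chose them are the group means of dyt1 and of ams, so the difference between these mutants is a description here and supports nothing.

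The groups were dyt1 anthers, ams anthers and wild-type (Col) anthers, with 3 arrays each that the labels call biological replicates. All were dissected at stages 4-7 from young buds of plants aged 3-4 weeks. The plants grew at 22 degrees under 16 hours of light and 8 hours of darkness. The labels give the mutants by gene name without an allele, and they do not divide stages 4-7 any further, so a whole anther with all its cell layers is what was measured. In such samples, fewer cells of a type and less RNA per cell cannot be told apart.

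The tapetum is the innermost wall layer of the anther. It nourishes the meiocytes and microspores, supplies the material of the pollen wall and coat, and then degrades. DYT1 and AMS are bHLH transcription factors that act in this layer, and in Arabidopsis DYT1 is placed upstream of AMS. ATA27, annotated also as BGLU20, belongs to the beta-glucosidases, enzymes that release glucose from glucosides. SHT is a spermidine hydroxycinnamoyl transferase, which attaches hydroxycinnamic acids to the polyamine spermidine in the tapetum, giving conjugates that end up on the pollen surface. The tables used here give AT1G68875, AT5G13380 and AT1G47980 no name or role.

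Levels are log2 values, on which 1 unit is a factor of 2 in signal. The files hold no detection calls. The lower quartiles of the 9 arrays lay between 4.58 and 4.78, and a mean in or under that band is not told here from background, so log2 differences against such a mean may understate the change in RNA.

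ATA27 stood at 4.00, 3.69 and 3.88 in dyt1 1, 2 and 3, at 11.99, 9.09 and 11.7 in ams 1, 2 and 3, and at 7.16, 7.13 and 11.6 in wild type 1, 2 and 3. All 3 dyt1 arrays were under the background band. The ams arrays and wild type 3 were high, and wild type 1 and 2 lay between them and dyt1.

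AT1G68875 showed the same order. Its level was 3.85, 3.81 and 3.76 in dyt1, 10.98, 9.30 and 10.5 in ams, and 7.86, 7.32 and 11.1 in wild type. The dyt1 arrays differed by no more than 0.082 from each other at this background-like level, and they did not overlap either of the other genotypes.

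AT5G13380 was at 4.18, 4.08 and 4.53 in dyt1, at 10.7, 9.35 and 8.88 in ams, and at 6.83, 6.61 and 11.7 in wild type. Here wild type 3 was above every ams array, and dyt1 was again within background.

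AT1G47980 differed from the others in that dyt1 1 and dyt1 3 stood far above the background band. It stood at 7.35, 4.90 and 8.91 in dyt1, at 11.6, 12.5 and 12.2 in ams, and at 10.1, 9.94 and 13.3 in wild type. The dyt1 arrays spanned 4.02, which put their SD of 2.03 at percentile 99.2 of all probe sets in that genotype. The array dyt1 2 was the low one. Among the 5 genes, AT1G47980 had the smallest SD over the ams arrays (0.47).

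SHT differed in another way: its dyt1 values overlapped those of wild type. It was at 5.27, 4.84 and 5.08 in dyt1, at 10.3, 7.70 and 8.76 in ams, and at 5.01, 5.69 and 10.3 in wild type. The dyt1 values were slightly above the background band. Wild type 1 lay below dyt1 1 and dyt1 3, and SHT was therefore low in 5 of the 9 arrays, those of dyt1 together with wild type 1 and 2.

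**Figure D1:**
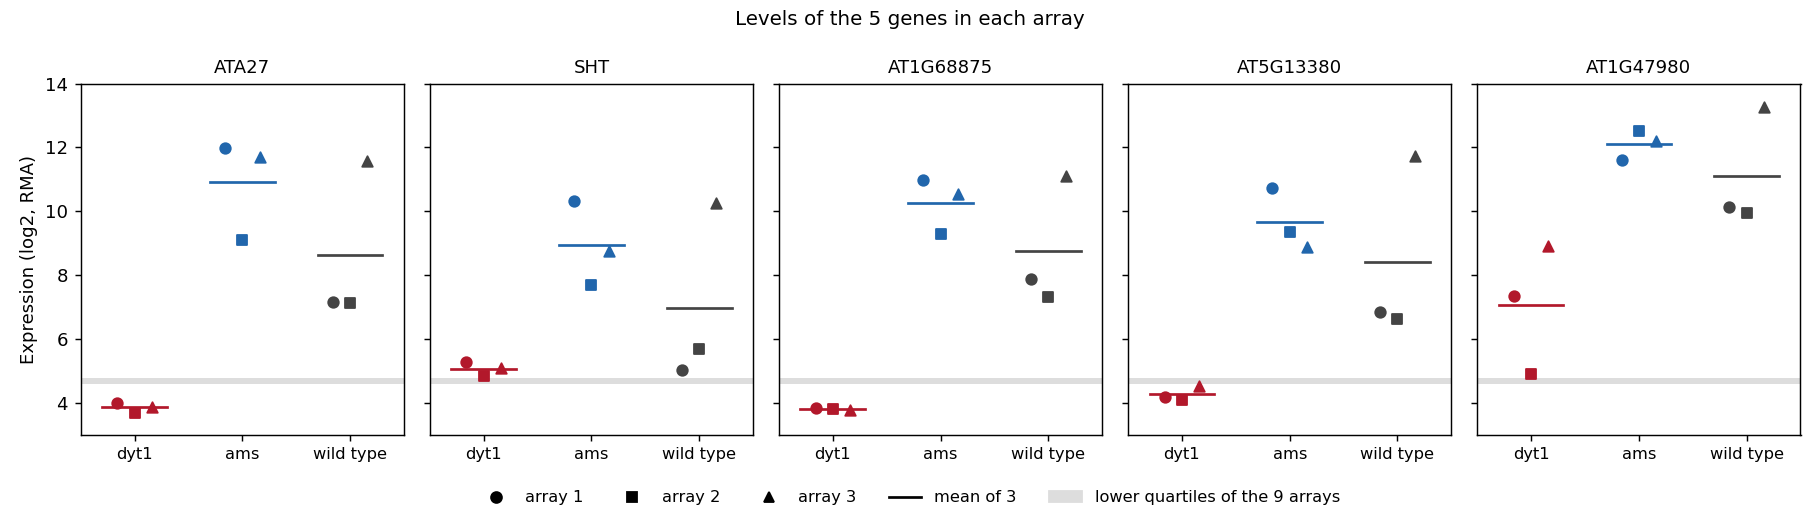
Each panel plots 1 gene, with the log2 level on the vertical axis and the dyt1, ams and wild-type arrays from left to right; symbols give the array number, lines the mean of 3, and the grey band the lower quartiles of the 9 arrays (4.58 to 4.78). In every panel the ams arrays lie above the dyt1 arrays, and wild type 3 lies well above wild type 1 and 2.

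In the difference that chose the genes, dyt1 minus ams, the log2 values were -7.08 for ATA27 (SE 1.19), -6.47 for AT1G68875 (SE 0.88), -5.39 for AT5G13380 (SE 1.21), -5.05 for AT1G47980 (SE 1.10) and -3.87 for SHT (SE 1.24). They ranked 1, 2, 3, 5 and 23 among the 13286 genes by size of the deficit in dyt1. Of the 5, 4 were called lower in dyt1 by limma's fit over all probe sets and SHT was not, where 2.42% of all probe sets were called lower; since this contrast chose the genes, nothing is read from the count. The smallest gap between the lowest ams array and the highest dyt1 array was 2.43, for SHT, and the largest was 5.45, for AT1G68875; 12.4% of all probe sets had every dyt1 array below every ams array.

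The gene mutated in ams was itself measured. AMS stood at 5.66, 3.96 and 4.78 in dyt1, at 9.61, 9.36 and 9.37 in the arrays labelled ams, and at 7.93, 7.70 and 7.55 in wild type. It was thus even across the 3 wild-type arrays, unlike the 5 genes, and high in the arrays labelled ams. The sources used here do not place its probe set relative to the mutation, so this level does not check the ams label. DYT1 was named by no probe set in the annotation and was not analysed here.

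The wild-type arrays disagreed more for these genes than for nearly any other. The SD over the 3 wild-type arrays was 2.56 for ATA27, 2.85 for SHT, 2.04 for AT1G68875, 2.902 for AT5G13380 and 1.87 for AT1G47980, against a median of 0.272 over all probe sets. These SDs lay at percentiles 99.9, 99.96, 99.6, 99.97 and 99.4 of all probe sets, in that order. In all 5 genes wild type 3 was the high array, as it was for 40.7% of all probe sets.

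Wild type 3 exceeded the mean of wild type 1 and 2 by 4.44 for ATA27, 4.90 for SHT, 3.50 for AT1G68875, 5.02 for AT5G13380 and 3.23 for AT1G47980. Over all 22746 probe sets the median of this difference was -0.04. Only 5 probe sets had a larger difference than AT5G13380 and 9 a larger one than SHT, while 19, 79 and 107 exceeded ATA27, AT1G68875 and AT1G47980. Wild type 1 and 2 lay close together, with wild type 2 minus wild type 1 between -0.54 for AT1G68875 and 0.68 for SHT.

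The difference between wild type 3 and the other wild-type arrays involves no array of the mutants. Among the 92 probe sets whose ams mean exceeded their dyt1 mean by more than 3, 39 also had wild type 3 more than 3 above the mean of wild type 1 and 2. That is 42.4% of the 92 and 29.1% of the 134 probe sets with such a wild-type difference, which made up 0.589% of all probe sets. Both limits were chosen after the values were seen. Across all probe sets, which are not independent replicates, the 2 differences correlated at r = 0.39.

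**Figure D2:**
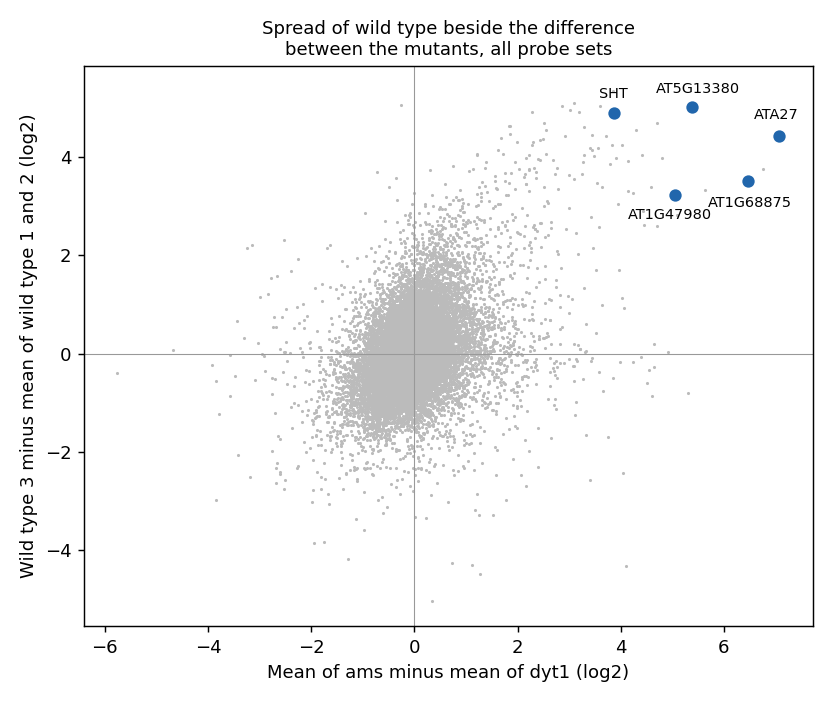
Each point is a probe set, with the mean of ams minus the mean of dyt1 on the horizontal axis and wild type 3 minus the mean of wild type 1 and 2 on the vertical axis, both in log2. The 5 genes, in blue, sit at the upper right, between 3.87 and 7.08 on the horizontal axis and between 3.23 and 5.02 on the vertical axis.

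In other measures too, wild type 3 was the highest of the wild-type arrays. The 25S ribosomal RNA control probe set was at 7.42, 11.502 and 6.20 in dyt1, at 11.6, 11.96 and 12.4 in ams, and at 5.51, 9.59 and 12.4 in wild type. By this measure wild type 1 and 2 did not lie close together. For actin, the 3' probe set exceeded the 5' one, a gap that widens as RNA degrades, by 1.04 to 2.10 in dyt1, 2.67 to 2.92 in ams, and 1.25, 1.28 and 2.81 in wild type 1, 2 and 3. The poly-A spike-in RNAs averaged 6.51 to 7.09 in dyt1, 6.59 to 6.70 in ams, 3.80 and 3.77 in wild type 1 and 2, and 6.93 in wild type 3. Wild type 3 was thus nearer to the ams arrays than to wild type 1 and 2 by each of these measures. Its spike-in level also lay within the dyt1 range. The part of these measures in the results was not tested. Of the dyt1 arrays, dyt1 2 alone had high 25S signal.

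Markers of other cell types were few on the annotated part of the array. The 3 of 8 listed meiocyte markers that were measured averaged 6.38 to 7.00 in dyt1, 6.41 to 7.22 in ams, 7.25 and 7.38 in wild type 1 and 2, and 6.12 in wild type 3, the lowest of all arrays. The single measured microspore and pollen marker of 7, AT5G45880, was at 5.15 to 5.68 in dyt1, 5.84 to 5.89 in ams, 7.36 and 7.76 in wild type 1 and 2, and 6.23 in wild type 3. The 4 of 10 measured tapetum markers averaged 8.73, 4.79 and 8.32 in dyt1 1, 2 and 3, 8.46 to 8.93 in ams, and 9.54, 9.64 and 8.88 in wild type 1, 2 and 3. The array dyt1 2 thus stood apart, and all 4 markers were lowest there, among them AT5G07230 at 11.1, 4.68 and 10.8 in dyt1 1, 2 and 3. Of the 5 genes, AT1G47980 was likewise lowest in dyt1 2 by a wide margin. Among the wild-type arrays, wild type 3 had the lowest tapetum average, although AT5G07230 was slightly highest there. These averages include AMS. Against wild type, AMS was called lower in dyt1 (-2.93, limma adjusted p = 0.0288) and higher in ams (1.72, limma adjusted p = 0.0413). The shares called over all probe sets were 0.119% and 2.45%. The other 3 markers were not called in any comparison, and each was lower in every ams array than in dyt1 1 and dyt1 3, unlike AMS. The 2 of 7 green tissue markers averaged 10.9 to 11.4 in dyt1, 11.6 to 11.97 in ams and 10.96 to 11.2 in wild type. They did not move alike. Against wild type, LHCB4.2 was called higher in ams (1.23, limma adjusted p = 0.00908), where 2.45% of all probe sets were. LHCB4.1 was not called there (0.13, limma adjusted p = 0.727). Between the mutants LHCB4.2 was called lower in dyt1 (-1.01, limma adjusted p = 0.0191), where 2.42% of all probe sets were, and LHCB4.1 was not called. The single ovule marker measured of 6, INO, was at 4.67 to 5.33 in dyt1, 5.19 to 5.93 in ams and 5.63 to 6.26 in wild type, and none of the 3 listed petal and sepal markers was measured. No measured marker was under the background band in all arrays. The part of these cell types in the results was not tested.

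Against wild type, the 5 genes had lower means in dyt1, but none passed the test. These tests reuse the dyt1 arrays through which the genes were chosen and are not independent of the choice. The log2 difference, dyt1 minus wild type, was -4.96 for AT1G68875 (SE 0.88, limma adjusted p = 0.0735), -4.77 for ATA27 (SE 1.19, limma adjusted p = 0.152) and -4.13 for AT5G13380 (SE 1.21, limma adjusted p = 0.195). For AT1G47980 it was -4.05 (SE 1.10, limma adjusted p = 0.177). For SHT it was -1.92, with a 95% interval from -4.75 to 0.91 (limma adjusted p = 0.508).

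Thus 0 of 5 genes were called in dyt1 by limma, where 0.119% of all probe sets were called lower, and 4 of 5 had an unadjusted p under 0.05, as 14.5% of all probe sets had. The dyt1 and wild-type arrays did not overlap for 4 of the 5, the exception being SHT, and 8.26% of all probe sets had every dyt1 array below every wild-type array. The median difference was -4.13 over the 5 genes and 0.046 over all probe sets.

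The call in dyt1 turned on wild type 3 and on the set of arrays. Without wild type 3, AT1G68875 (-3.79, limma adjusted p = 0.0202) and AT5G13380 (-2.46, limma adjusted p = 0.0473) fell, where 1.27% of all probe sets were called lower. The SHT difference shrank to -0.28 in that setting, and that of ATA27 to -3.29. Without dyt1 2, AT1G68875 fell by 4.96 (limma adjusted p = 0.0487), where 0.813% of probe sets were called lower, and the other 4 genes did not pass. With the set of arrays (25S signal above or below 11) as a block, AT1G68875 alone fell (-4.96, limma adjusted p = 0.0298), where 0.633% of probe sets were called lower. With array weights, and again with wild type 3 and dyt1 2 both left out, the 4 genes other than SHT fell, where 17.6% and 6.62% of probe sets were called lower.

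Among the 4 arrays of low 25S signal, dyt1 1 and 3 against wild type 1 and 2, the difference was -3.21 for ATA27, -3.79 for AT1G68875, -2.37 for AT5G13380 and -1.90 for AT1G47980. These 4 fell there, with limma adjusted p values from 0.000375 to 0.0344, and 8.29% of all probe sets were called lower. For SHT it was -0.17, from 5.18 in the mean of those dyt1 arrays and 5.35 in that of those wild-type arrays. Genotype cannot be told apart from spike-in level in this set. The 4 arrays were also not alike in 25S signal, which ran from 5.51 in wild type 1 to 9.59 in wild type 2.

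Of the 5 arrays with high 25S signal, dyt1 2 was the only dyt1 array and wild type 3 the only wild-type array, so the spread within these genotypes is not measured there and no test is given. The difference was -8.36 for AT1G47980, -7.90 for ATA27, -7.66 for AT5G13380, -7.29 for AT1G68875 and -5.41 for SHT. These are differences between single arrays.

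In ams, the 5 genes had means above wild type and none passed. The log2 difference, ams minus wild type, was 2.30 for ATA27 (SE 1.19, limma adjusted p = 0.301), 1.95 for SHT (SE 1.24, limma adjusted p = 0.398) and 1.51 for AT1G68875 (SE 0.88, limma adjusted p = 0.353). It was 1.25 for AT5G13380 (95% interval -1.50 to 4.00) and 0.997 for AT1G47980 (95% interval -1.51 to 3.51). By limma 0 of 5 were called, where 2.45% of all probe sets were called higher, and 0 of 5 had an unadjusted p under 0.05, against 21.6% of all probe sets. The comparison of ams and that of dyt1 share the wild-type arrays.

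Every ams array was above wild type 1 and 2 for all 5 genes. The share of all probe sets with this order was not counted, and the ams arrays helped to choose the genes, so nothing is read from it. For 0 of 5 were the ams arrays all above wild type 3, whereas they were above every wild-type array for 13.1% of all probe sets. Wild type 3 exceeded every ams array for AT1G68875, AT5G13380 and AT1G47980 and lay within the ams range for ATA27 and SHT. The mean of ams minus wild type 3 was -0.66 for ATA27, -1.32 for SHT, -0.82 for AT1G68875, -2.09 for AT5G13380 and -1.16 for AT1G47980. The sign is the opposite of that seen with all wild-type arrays, and these values rest on a single wild-type array, with no test.

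Without wild type 3, ATA27 rose by 3.78, SHT by 3.58, AT5G13380 by 2.93 and AT1G68875 by 2.68, with limma adjusted p values from 0.00855 to 0.0162, where 8.2% of all probe sets were called higher. AT1G47980 had a difference of 2.07 and did not pass. All 5 rose with array weights, and again with wild type 3 and dyt1 2 both left out, where 17.4% and 16.2% of probe sets were called higher. With only wild type 1 and 2 as controls, 25S signal, the actin gap and spike-in level each split the arrays by genotype. Their effects and that of genotype cannot be told apart in this comparison. The ams levels helped to choose the genes, so their height does not bear on whether the genes are kept in ams. Whether they are late genes was not tested, since the labels do not separate the stages.

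**Figure D3:**
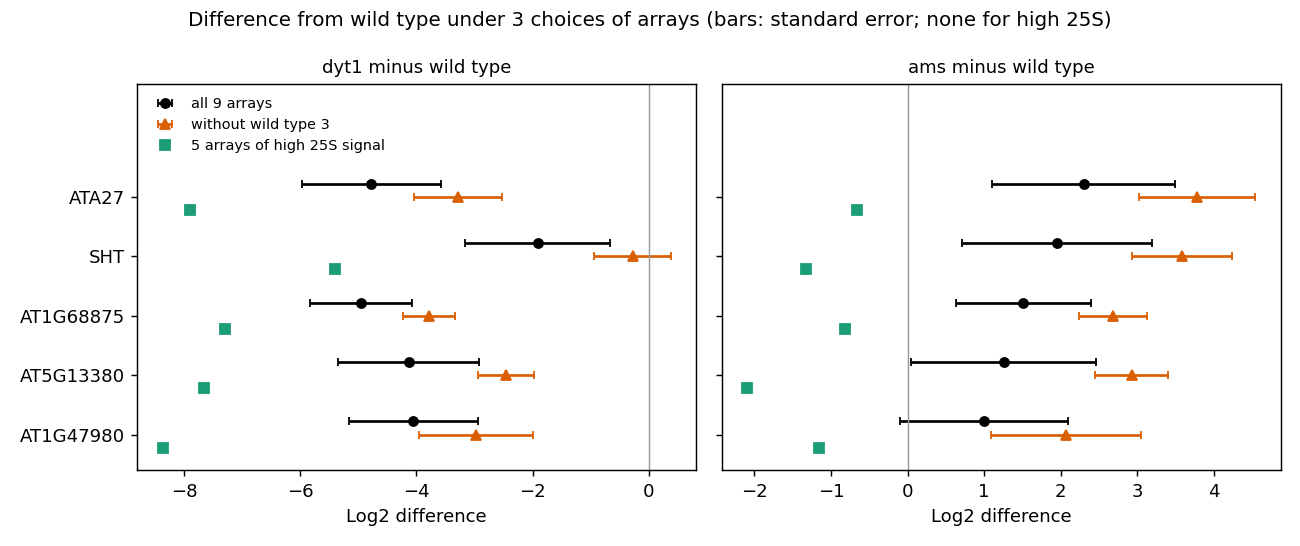
For each gene, points give the log2 difference dyt1 minus wild type (left) and ams minus wild type (right), from all 9 arrays and without wild type 3, with bars for the standard error, and from the 5 arrays of high 25S signal, without bars because dyt1 and wild type have 1 array each there. In dyt1 every value is below 0; in ams all 5 values are above 0 in the first 2 settings and below 0 in the last, where wild type 3 is the only wild-type array.

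The ams arrays also varied among themselves. The SD over the ams arrays was 1.60 for ATA27, 1.32 for SHT, 0.96 for AT5G13380 and 0.87 for AT1G68875, all at or above percentile 98.6 of probe sets, and the median over all probe sets was 0.166. The array ams 1 was the highest of the 3 for 4 genes, and ams 2 was the lowest for ATA27, SHT and AT1G68875. For AT1G47980 the order differed, with ams 2 highest and ams 1 lowest.

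Across the 9 arrays, the 10 pairs of the 5 genes correlated at r = 0.785 (SHT and AT1G47980) to r = 0.989 (ATA27 and AT1G68875). The points share 3 genotypes and the sets of arrays described above, and the genes were chosen for 1 of these contrasts, so the values are a description.

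The genes most like the 5 in pattern were searched among the other 13281 genes by Pearson correlation over the 9 arrays with their mean profile, each gene centred on its mean and divided by its SD. AT4G14815 was the closest (r = 0.996), followed by AT1G20120 (r = 0.991), AT3G50570 (r = 0.985), AT2G03740 (r = 0.975), AT1G30020 (r = 0.975) and AT5G48210 (r = 0.974). The tables give none of these 6 a name or role. In all, 17 genes correlated above 0.95.

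AT4G14815 was at 6.05, 5.12 and 5.91 in dyt1, at 10.7, 9.005 and 10.1 in ams, and at 7.84, 7.74 and 11.1 in wild type. AT2G03740 was at 4.40, 4.36 and 4.98 in dyt1, at 10.5, 8.10 and 9.29 in ams, and at 7.41, 7.29 and 12.05 in wild type. In both, wild type 3 was the highest of the 9 arrays and ams 2 the lowest of the ams arrays.

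Gene by gene, ATA27 and AT1G68875 were each other's nearest (r = 0.989). AT4G37900 (r = 0.986) and AT1G23560 (r = 0.986) came nearest to SHT. AT4G37900 was at 6.71, 6.15 and 6.18 in dyt1, at 10.5, 8.19 and 9.92 in ams, and at 6.39, 6.59 and 11.4 in wild type, so that its dyt1 arrays too overlapped wild type 1 and 2. AT1G30020 (r = 0.987) and AT5G16960 (r = 0.985) came nearest to AT5G13380, and AT4G14815 (r = 0.988) and AT5G48210 (r = 0.984) were second for ATA27 and for AT1G68875.

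AT1G02813 came nearest to AT1G47980 (r = 0.982). It was at 5.66, 4.36 and 7.61 in dyt1, at 9.64, 11.3 and 11.1 in ams, and at 9.03, 9.01 and 13.0 in wild type, so it shared the low dyt1 2, the low ams 1 and the high wild type 3. The second, AT5G20120 (r = 0.981), varied within a narrow range, from 8.50 in dyt1 2, its lowest array, to 9.14 in wild type 3, its highest.

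**Figure D4:**
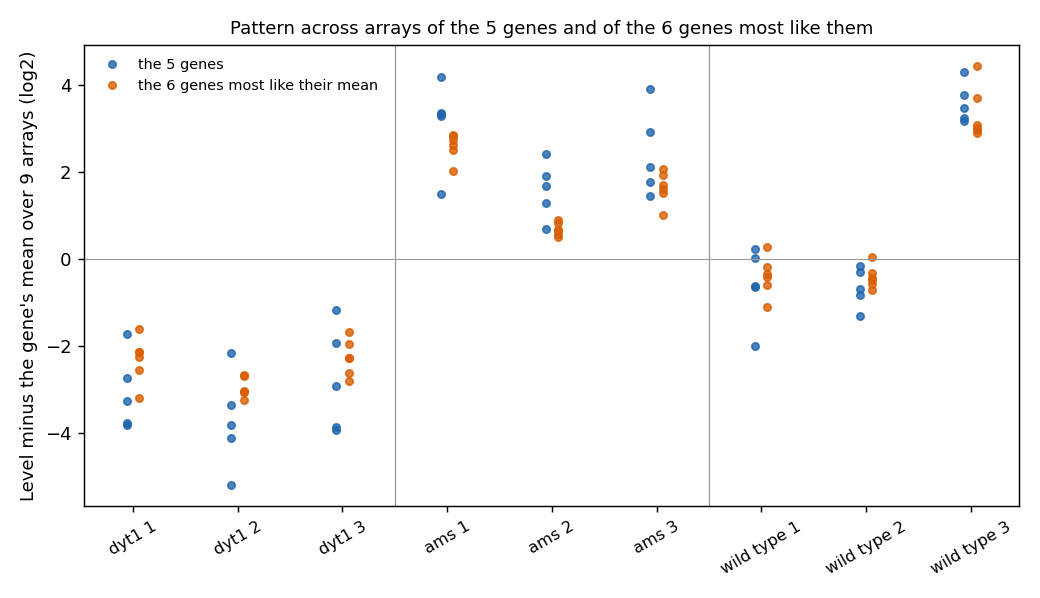
Points give the level of each gene minus its own mean over the 9 arrays, in log2, for the 5 genes (blue) and the 6 genes most like their mean profile (orange), with the arrays of dyt1, ams and wild type from left to right. Both sets are lowest in dyt1 and highest in ams and wild type 3.

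Of the other beta-glucosidases, BGLU28 passed the test. Over all probe sets and in either direction, limma called 0.193% in dyt1 against wild type, 3.51% in ams against wild type and 4.87% between the mutants. An unadjusted p under 0.05 was reached by 14.5%, 21.6% and 22.3% of all probe sets in these comparisons, and the counts for the lists and neighbours that follow are to be read against these shares. Of the 21 other measured genes named BGLU, 0 were called in dyt1 against wild type by limma (2 at an unadjusted p under 0.05), with a median log2 difference of -0.09. In ams 1 rose and 20 did not pass (6 at an unadjusted p under 0.05), with a median of 0.05. Between the mutants 1 was called (5 at an unadjusted p under 0.05), and these counts are near the shares over all probe sets. BGLU28 rose by 2.77 in ams (SE 0.40, limma adjusted p = 0.00861) and was lower in dyt1 than in ams by a log2 difference of -2.76 (limma adjusted p = 0.00844). BGLU28 stood at 4.57, 4.37 and 4.49 in dyt1, at 8.29, 6.93 and 6.49 in ams, and at 4.64, 4.63 and 4.14 in wild type. Unlike ATA27 it was background-like in wild type 3. Of the 22 measured genes named BGLU, ATA27 included, 10 were under the upper edge of the background band in every array.

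Of the 21 listed genes of phenolamide synthesis, the route in which SHT acts, 3 besides SHT were measured. By limma 0 of 3 were called in dyt1 or in ams against wild type, with 0 and 1 at an unadjusted p under 0.05, and 0 were called between the mutants, with 1 at an unadjusted p under 0.05. SDT, a spermidine disinapoyl acyltransferase, was at 6.33, 4.05 and 5.91 in dyt1, at 7.37, 4.81 and 6.10 in ams, and at 6.32, 5.55 and 8.05 in wild type. Wild type 3 was again the highest array and ams 1 the highest of the ams arrays, but dyt1 and ams overlapped. HCT, a hydroxycinnamoyl transferase of the shikimate and quinate esters, stood at 8.14 to 9.95 in dyt1, 9.13 to 9.45 in ams and 9.17 to 9.73 in wild type. Of the 5 measured acyltransferases of the BAHD family besides SHT, limma called 0 in each of the 3 comparisons, while an unadjusted p under 0.05 was reached by 0 in dyt1 and 1 in ams against wild type and by 1 between the mutants. These 5 include the 3 phenolamide genes counted above, SDT, HCT and AT2G25150, so the counts of both lists overlap. AT2G25150 is the gene with an unadjusted p under 0.05 in both.

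Of the 22 listed loci of lipid transfer in the tapetum and of the pollen coat, 8 were measured. By limma 0 of 8 were called in dyt1 (4 at an unadjusted p under 0.05, median -2.43) or in ams against wild type (2 at an unadjusted p under 0.05, median -0.49). Between the mutants 1 was called, lower in dyt1 than in ams, with 3 at an unadjusted p under 0.05. The unadjusted counts in dyt1, in ams and between the mutants were all above the shares of 14.5%, 21.6% and 22.3% over all probe sets. Nothing is read from so few genes. The list was chosen with earlier results known. The dyt1 values of this list rest in part on dyt1 2: without that array the median in dyt1 is -1.65. The gene lower in dyt1 than in ams was AT5G52160, with a log2 difference of -3.53 (limma adjusted p = 0.0450). It stood at 6.44, 4.25 and 5.98 in dyt1, at 10.5, 8.75 and 7.97 in ams, and at 9.82, 10.5 and 11.9 in wild type. It was high in all 3 wild-type arrays, as AT1G47980 was and the other 4 of the 5 genes were not. The 2 measured loci of 14 listed for sporopollenin and exine were SWEET8 and AT1G33430. SWEET8, a sugar transporter, was at 10.3 to 11.4 in dyt1, 9.87 to 11.502 in ams and 11.2 to 12.4 in wild type. AT1G33430 was at 5.73 (in dyt1 2) to 10.9 in dyt1, 10.5 to 11.9 in ams and 12.2 to 13.1 in wild type. By limma 0 of these 2 were called in any comparison, and 1, AT1G33430, had an unadjusted p under 0.05 in dyt1 against wild type.

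ATA27, AT1G68875 and AT1G47980 lie on chromosome 1, SHT on chromosome 2 and AT5G13380 on chromosome 5. Among the nearest 2 measured genes on each side of each, 20 in all, limma called 0 in each comparison, while an unadjusted p under 0.05 was reached by 0 in dyt1 and 7 in ams against wild type and by 4 between the mutants. The counts called by limma are near the shares over all probe sets. At an unadjusted p under 0.05 the shares were 14.5% in dyt1 and 21.6% in ams against wild type and 22.3% between the mutants. The count of neighbours was below that share in dyt1 and above it in ams, and nothing is read from so few genes. AT1G75920, separated from ATA27 by 1 gene in the annotation's order, was at 4.999, 4.48 and 4.56 in dyt1, at 8.07, 5.11 and 7.88 in ams, and at 5.45, 6.03 and 8.28 in wild type. It was high in ams 1, ams 3 and wild type 3, as ATA27 was, and its dyt1 minus ams difference of -2.34 did not pass (limma adjusted p = 0.166). For the other 19 neighbours that difference lay between -0.78 and 0.64, and wild type 3 minus the mean of wild type 1 and 2 lay between -1.38 and 1.03.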

How the data were processed

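Expression was measured on 9 Affymetrix arrays, 3 each of dyt1, ams and wild-type anthers. The authors deposited log2 values, 1 per probe set, from RMA, per the submitters' processing notes, which name no version. That method subtracts background, equalizes the arrays' distributions and combines probes, and it compresses dim levels. Neither the number of RMA runs nor the build behind the array is named, so no coordinates are printed. The number of arrays limits the precision.

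The table held 22810 probe sets. The 64 controls were left out of the tests, leaving 22746. Of these, 13436 matched 1 gene of the RefSeq TAIR10.1 table, 503 were annotated with several genes, and 8730 are unnamed here. A gene with several probe sets took the one of highest mean.

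In R 4.3.3, limma 3.58.1 (lmFit, eBayes) fitted a mean for each genotype to the 9 arrays, with p-values adjusted by Benjamini-Hochberg over 22746 probe sets. Calls were made at an adjusted p under 0.05. The fit was tested on simulated data. Intervals are limma's 95% intervals. Named besides the 5 genes were AMS, the 6 genes most like their mean profile, the 2 most like each, the nearest 2 measured neighbours on each side, and of each list its called genes or else its 2 brightest. The members and all lists were chosen with earlier results of these data known. AT1G75920 and AT4G14815 and the other genes given in every array were picked from those named after their values were seen. The lists were those of phenolamide synthesis, sporopollenin and exine, tapetal lipid transfer and the pollen coat, the beta-glucosidases, BAHD acyltransferases and cell type markers. Alternatives covered normalization, centring, controls, dim signals, models of the variance, weights for arrays, the replicate number as a block, the groups fitted, the set of arrays by 25S signal (above or below 11), and each array left out. Sequences were not used here.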

Additional observations from a re-analysis of the deposited data

How the results depend on the processing

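The direction of dyt1 against wild type was kept by all 5 genes in all 23 alternatives, but 4 of them do not overlap wild type, so that leaving out arrays could not turn their sign. Their count of calls, 0 with all arrays, was 0 to 2 on leaving out 1 array, 1 with the set of arrays as a block, and 4 with array weights, with both wild type 3 and dyt1 2 left out and within low 25S. Within high 25S dyt1 and wild type have 1 array each, so the fit borrows its spread from ams, and neither its 5 calls nor its other counts are read as calls. In ams the count of calls was 0 to 4 on leaving out 1 array and 5 with array weights or without both arrays. The sign in ams turned within high 25S for ATA27 (-0.66), SHT (-1.32), AT1G68875 (-0.82), AT5G13380 (-2.09) and AT1G47980 (-1.16), and for AT5G13380 with the set of arrays as a block (-0.33), since wild type 3 is then the main wild-type array.

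Counts over all probe sets moved most with array weights. In dyt1 against wild type, 44 were called, and 29 after quantile normalization, 85 with a floor at the percentile 20, 8 from the 2 groups alone, 274 with the set of arrays as a block, 8744 with array weights, 3720 without both arrays, 4449 within low 25S, 2544 within high 25S and 1 to 702 on leaving out 1 array. In ams against wild type, 798 were called, and 8916 with array weights, 7862 without both arrays, 1201 within high 25S and 279 to 4146 on leaving out 1 array. In dyt1 against ams, 1108 were called, and 8956 with array weights, 1979 from the 2 groups alone, 5958 without both arrays, 3487 within high 25S and 354 to 2945 on leaving out 1 array. The cause was not tested. Centring each array on its median gave 10 higher and 34 lower in dyt1, against 17 and 27 without it, and 417 higher and 332 lower in ams, against 558 and 240.

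Same-numbered arrays of different genotypes had deviations correlated at -0.012 to 0.24, above 0.1 in 4 of 9 pairs. For arrays of different number the range was -0.27 to 0.14, above 0.1 in 3 of 18 pairs. These values do not settle whether the replicate numbers pair the arrays. With the replicate block, 54 probe sets were called in dyt1 and 545 in ams against wild type and 729 in dyt1 against ams; the 5 genes had no call in either comparison with wild type, with ATA27 at 2.30 in ams (limma adjusted p = 0.238). With 3 arrays a group and no detection calls, differences among levels under the background band could not be measured.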
